A study of Mus musculus with 48 samples.

Results

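The genes described here were the cytochrome P450 genes of mouse lung outside family 1. They were the genes whose symbol had the form of a numbered P450 (Cyp, a family number, a subfamily letter or letters and a gene number), without Cyp1a1, Cyp1a2, Cyp1b1 and Cyp2f2, and with at least 0.5 FPKM in at least 3 of 48 mice. FPKM is the number of sequenced fragments scaled to transcript length and to the total mapped, so it can be compared between genes of different length. Of 90 such symbols in the expression table, 26 reached that level and 64 did not, and the table listed 47561 genes in all. Of the 64 below the level, 21 were listed at 0 in every mouse. Of the 26, 20 were above 0 in all 48 mice.

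The data were RNA sequencing of lung tissue from 48 adult mice in 16 groups of 3. The mice were male or female, of the strain given as C3H/hen (C3HM and C3HF) or as C57Bl/6 (C57BM and C57BF). Each had received 1 intraperitoneal injection, either saline or 25 mg/kg aurothioglucose (ATG), a gold-containing inhibitor of the enzyme thioredoxin reductase, and had then been kept for 96 h in room air or in hyperoxia of over 95% oxygen. All were inbred mice with no transgene named. The study's description gave all mice ATG and named a substrain of C57Bl/6 that differs from the one in its methods, so the sample labels were followed and no substrain is named here. Room air with saline was the baseline of the study for its questions on strain and sex, and oxygen and ATG were applied to the other 36 mice.

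Cytochrome P450 enzymes hold a heme whose iron is bound by a cysteine of the enzyme, and they insert 1 atom of oxygen into their substrate with electrons passed on by P450 oxidoreductase or, in mitochondria, by ferredoxins. The families divide the work. Families 2 and 3 and Cyp4b1 mostly oxidise drugs and inhaled chemicals, the other family 4 enzymes and the 2J and 2U enzymes oxidise fatty acids and eicosanoids, families 7, 8, 27 and 39 and Cyp2r1 act on sterols, bile acids and vitamin D, and family 26 clears retinoic acid. In lung, club cells of the airways and alveolar type 2 cells are known as rich sources of the enzymes that handle foreign chemicals.

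The part of the coding sequence that the family shares is the loop around the heme cysteine, and it is shown for the members on which the comparisons below turn. The PROSITE pattern of the cytochrome P450 cysteine heme-iron ligand signature, which spans 10 residues, was found once in 20 of the 26 proteins, which were 462 to 534 residues long. For each gene only the transcript with the longest coding sequence was read. The pattern was not matched in Cyp2b10, Cyp2s1, Cyp20a1, Cyp39a1, Cyp7b1 and Cyp8b1, which says only that the residues of those transcripts depart from it. Other transcripts of these genes were not searched. The coding sequences of the loop in GENCODE M21 transcripts (mm10), with the cysteine codon in capitals, were as follows.
Cyp26b1: tttggcggtggcgtgcggaccTGCctgggc
Cyp27a1: ttcggctatggggttcggtctTGCctgggt
Cyp3a13: tttgggagtggaccaaggaacTGCattggc
Cyp2r1: ttttctctagggagaagacatTGTcttgga
Cyp4b1: ttttctgcagggcccaggaatTGCattggg
Cyp4v3: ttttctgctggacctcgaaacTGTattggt
Cyp4f18: ttctcggctgggcccaggaacTGCatagga
Cyp2j9: ttctcaatgggaaaacgtgctTGTcttgga
Cyp2d22: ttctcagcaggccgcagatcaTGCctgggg
Cyp2e1: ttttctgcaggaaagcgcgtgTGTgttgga
The loop lay in a single coding exon in Cyp26b1 (chr6:84574477-84574506, minus strand, exon 7 of 7), Cyp27a1 (chr1:74737320-74737349, plus strand, exon 8 of 9) and Cyp3a13 (chr5:137895267-137895296, minus strand, exon 12 of 13). In the other 7 sequences shown it crossed the junction of the last pair of coding exons. Both cysteine codons were used, TGC in 6 of these 10 loops and TGT in the other 4.

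Upstream sequence is shown for the 3 genes with a RefSeq promoter entry that were lower in C3H lungs than C57B lungs in room air and whose upstream window met no annotated exon. Each is the 100 bases before the gene start (GRCm38.p6, 5′ to 3′ on the gene's strand), and capitals mark CCAAT or its reverse complement ATTGG.
Cyp3a13: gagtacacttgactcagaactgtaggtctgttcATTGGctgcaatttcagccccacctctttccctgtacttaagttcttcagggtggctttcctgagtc
Cyp2r1: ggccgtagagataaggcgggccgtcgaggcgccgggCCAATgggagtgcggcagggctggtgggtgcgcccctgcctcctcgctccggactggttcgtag
Cyp4f18: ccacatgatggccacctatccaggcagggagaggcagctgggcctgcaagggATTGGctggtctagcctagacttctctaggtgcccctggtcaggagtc
They lay at chr5:137921620-137921719, chr7:114562973-114563072 and chr8:72009627-72009726, all on the minus strand, and the letters began 67, 64 and 48 bases before the start. CCAAT stood on either strand in this window in 10 of the 20 members with an entry and in 18.9% of all upstream windows of that length. In the whole promoter entries of 300 bases, TATAAA was found on either strand in 4 of 20 members (Cyp26b1, Cyp2a5, Cyp2e1 and Cyp8b1) and in 13.6% of all 32851 entries, and GCGTG, the core of the element bound by the aryl hydrocarbon receptor, in 8 of 20 and in 32.4%. These counts describe letters and were not tied to any binding.

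The members' transcripts were dominated by a few genes. Cyp4b1, which activates lung toxicants such as ipomeanol, was the most abundant, at a mean of 307 FPKM over 48 mice (range 161 to 424, median 297). Cyp2b10, the classic target of the constitutive androstane receptor, followed at 172 FPKM (82.6 to 308), and Cyp2s1, a P450 of epithelia outside the liver, at 53.7 FPKM (22.3 to 95.0). These 3 genes made up 79.3% of the summed FPKM of the 26 members, with 45.6% from Cyp4b1 alone.

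The next 5 genes completed the 8 most abundant members. Cyp20a1, whose substrate is not settled, had a mean of 19.9 FPKM (9.65 to 26.9). Cyp2a5, which oxidises coumarin and nicotine, had nearly the same mean, 19.6 FPKM, but ran from 1.41 to 221 with a median of 9.18, so its mean rested on a few mice. Cyp4f16 of the fatty acid group had 12.1 FPKM (6.85 to 21.8), Cyp4v3, a fatty acid omega-hydroxylase, 11.2 FPKM (3.89 to 17.6), and Cyp39a1, an oxysterol hydroxylase and the most abundant member that acts on sterols, 10.6 FPKM (2.53 to 15.6). Neighbours in this order from Cyp20a1 to Cyp39a1 had overlapping ranges.

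The lowest members sat at the edge of the rule. Cyp2c44, named Cyp2c23 in GENCODE M21, reached 0.5 FPKM in 5 mice with a highest value of 0.711, and Cyp2ab1 did so in 13 mice. Just outside, Cyp4f37, Cyp2b19 and Cyp2a4 reached it in 2 mice, with highest values of 0.677, 0.893 and 0.627 FPKM. None of the 6 listed P450 genes of steroid hormone synthesis reached the level.

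The summed FPKM of the 26 members per mouse had a range of 391 to 936 with a median of 670. It overlapped between the 4 combinations of injection and air, with medians of 646 for saline in room air, 713 for saline in hyperoxia, 684 for ATG in room air and 686 for ATG in hyperoxia. Cyp2j6, an arachidonic acid epoxygenase, varied least, with an SD within groups of 0.13 on the log2(FPKM + 1) scale and a ratio of 1.38 between its highest and lowest group means. Cyp2a5 and Cyp26b1 varied most within groups (SD 1.23 and 0.88), and Cyp26b1, the retinoic acid hydroxylase, had a ratio of 116 between its highest and lowest group means.

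**Figure D1:**
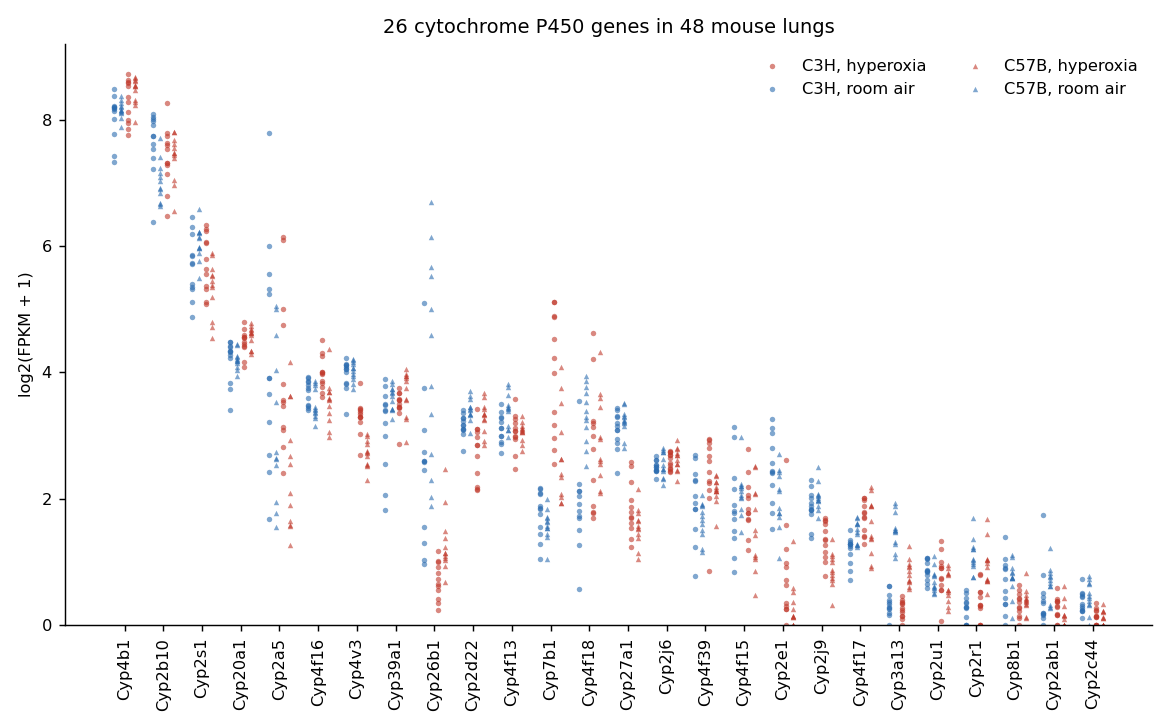
The level of each of the 26 members in each of the 48 mice as log2(FPKM + 1), with the genes in order of mean FPKM and the mice split by strain (circles C3H, triangles C57B) and air (blue room air, red hyperoxia). Cyp4b1 and Cyp2b10 were high in every mouse, while Cyp26b1 was highest in C57B mice in room air and Cyp7b1 in C3H mice in hyperoxia.

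Several facts of the libraries touch the comparisons. In each mouse the nearest other mouse by correlation was of the same strain and the same air (48 of 48). Summed markers of alveolar type 2 cells ran from 25644 to 49299 FPKM in the saline mice in room air, as lung tissue should hold, while summed cardiomyocyte markers reached 747 FPKM in C3HF mouse 27 and 552 in C3HM mouse 6. C3HM saline room air mice 1 and 3 correlated at 0.930 and 0.946 with the 3 C3HF saline room air mice, against 0.971 for mouse 2. With each other mice 1 and 3 correlated at 0.962, and mouse 2 correlated with them at 0.941 and 0.958. Mice 1 and 3 had less Cyp39a1 (2.53 and 3.17 against 9.58 FPKM) and less Cyp4b1 (171 and 161 against 295 FPKM) than mouse 2. The club cell marker Scgb1a1 made up 30.2% of the summed FPKM in mouse 1, the highest share of the 48 mice. Summed neutrophil markers reached 6206 FPKM in C3HF mouse 33 and 4825 in C57BM mouse 19, both given saline in hyperoxia. Named calls that were lost without these mice are given with the value without them.

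For strain at baseline, 4 of the 26 members were lower in C3H than C57B and none was higher by the test. They were Cyp26b1, Cyp4f18, Cyp3a13 and Cyp2r1, which act on retinoic acid, leukotrienes and fatty acids, foreign chemicals and vitamin D. The comparison took 6 saline C3H mice against 6 saline C57B mice in room air. Reads of both strains were aligned to the same genome, mm10. Whether sequence differences between the strains touched any level, here or in the later strain comparisons, was not tested. The 4 called members were 15.4% of the members, beside 9.85% of the 18998 genes tested (1871 genes, 3.31% higher and 6.54% lower in C3H), and 3 members had groups that did not overlap, beside 5.21% of all genes. Cyp3a13 and Cyp2r1 met the rule for members through C57B mice. On C3H mice alone they would not have met it, so their direction and lack of overlap were partly set by that rule. This limit holds for both genes in the later strain comparisons too. The median log2 difference was -0.16 for the members and -0.08 for all genes.

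Cyp26b1, which breaks down retinoic acid, was 1.03, 7.50 and 0.964 FPKM in C3HM and 5.67, 1.92 and 4.95 in C3HF, against 49.8, 23.2 and 103 in C57BM and 45.1, 31.2 and 9.09 in C57BF. All 6 C57B mice were above all 6 C3H mice. The means were 3.67 ± 2.74 FPKM (SD, n = 6) and 43.6 ± 32.6 FPKM (SD, n = 6) (log2 fold change -3.15, SE 0.54, adjusted p = 0.00526). Fold changes are given on the log2(FPKM + 1) scale throughout, and on it a low gene shows less than its full change. Without C3HM mice 1 and 3 the difference was -2.45 and its adjusted p was 0.059, with the lone C3HM mouse assumed to vary like the other groups.

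Cyp3a13, a family 3 enzyme for drugs and steroids, was 0.145, 0 and 0.205 FPKM in C3HM and 0.291, 0.225 and 0.388 in C3HF, against 1.91, 1.09 and 1.44 in C57BM and 1.78, 1.83 and 2.83 in C57BF. Every C57B mouse exceeded every C3H mouse (log2 fold change -1.20, SE 0.12, adjusted p = 0.000146). Cyp2r1, the vitamin D hydroxylase of the liver, was 0, 0 and 0.277 FPKM in C3HM and 0.283, 0.0875 and 0.217 in C3HF, against 1.56, 1.07 and 1.35 in C57BM and 1.04, 2.24 and 0.988 in C57BF. It too showed no overlap between the strains (log2 fold change -1.04, SE 0.14, adjusted p = 0.0011), and the calls of both genes held in all 21 alternative fits.

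Cyp4f18, an omega-hydroxylase of leukotrienes that is known from neutrophils, was 10.7, 2.78 and 3.34 FPKM in C3HM and 2.24, 2.32 and 1.85 in C3HF, against 9.42, 12.6 and 8.50 in C57BM and 5.79, 10.6 and 7.75 in C57BF. C3HM mouse 1 lay within the C57B values and the other 5 C3H mice lay below them (log2 fold change -1.22, SE 0.27, adjusted p = 0.0201). The call was lost in 3 of the 12 fits that left out 1 mouse, those without C3HM mouse 3, C57BM mouse 14 or C57BF mouse 38. Of the neutrophil markers, 2 of 4 were lower in C3H than C57B, with sums of 131 to 307 and 177 to 763 FPKM, and of the B cell markers 4 of 4 were lower, with sums of 19.0 to 60.3 and 70.5 to 100.1. Of the alveolar type 2 markers 4 of 5 were lower in C3H (sums of 25644 to 39729 and 34508 to 49299 FPKM), and of the alveolar type 1 markers 3 of 5 were higher (3298 to 5781 and 2627 to 3198). Their part in these results was not tested. In whole lung tissue, fewer cells of a type and less RNA per cell cannot be told apart.

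**Figure D2:**
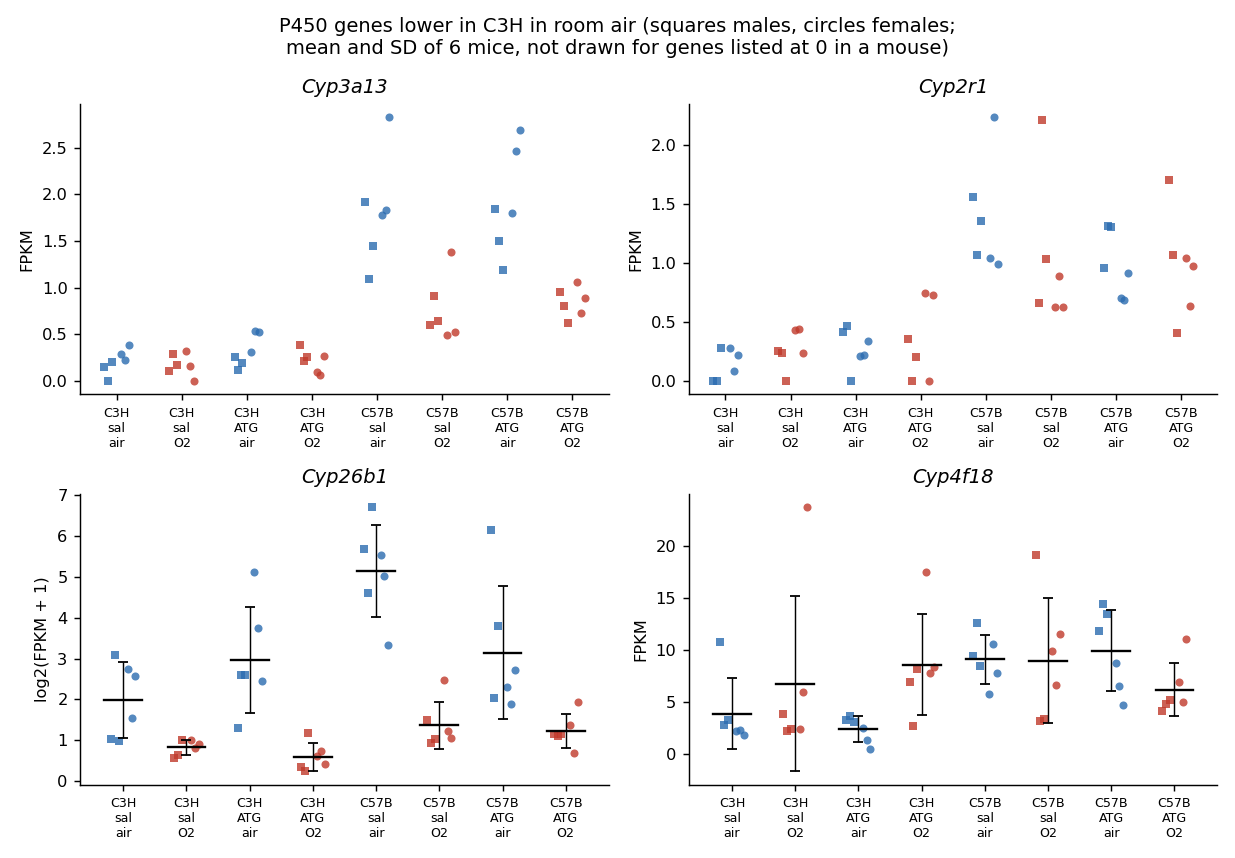
FPKM by mouse of the 4 members called between strains, and log2(FPKM + 1) for Cyp26b1, in each strain and combination of injection and air (squares males, circles females, blue room air, red hyperoxia). Lines and bars are the mean and SD of 6 mice, drawn for Cyp26b1 and Cyp4f18. In saline room air the C3H and C57B mice did not overlap for Cyp26b1, Cyp3a13 and Cyp2r1.

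The scaling of the libraries bore on the direction across all genes but left the 4 members lower. As deposited, 33.6% of the genes called between strains were higher in C3H, and after quantile normalization or median ratio scaling 51.8% and 47.4% were. Under those scalings 1 and 2 members were called higher in C3H, beside 4 called lower in each. Of all genes, 999 and 927 were then called higher and 931 and 1028 lower, against 629 and 1242 as deposited. Without C3HM mouse 2, 7 members were called, and the share of all genes called in that fit is not given here.

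Over all 48 mice, with sex, injection and air in the fit, 12 members differed between strains, 6 higher and 6 lower in C3H than C57B. That was 46.2% of the members beside 38.7% of all genes (17.9% higher and 20.8% lower). No member was free of overlap between the 24 C3H and the 24 C57B mice, beside 0.763% of all genes. The lower genes were Cyp26b1 (-1.13), Cyp3a13 (-0.87), Cyp4f18 (-0.80), Cyp2r1 (-0.72), Cyp2d22 (-0.40), a drug-metabolising P450 of the 2D subfamily, and Cyp39a1 (-0.32), each as a log2 fold change. The higher genes were Cyp2a5 (1.32), Cyp7b1 (0.72), Cyp2e1 (0.49), which oxidises ethanol and small solvents, Cyp4f16 (0.32), Cyp2b10 (0.31) and Cyp4v3 (0.27). With the 24 saline mice alone, 7 of the members were called, and the share of all genes called in that fit is not given here. Cyp7b1 then had a log2 difference of 0.10 (adjusted p = 0.509), Cyp39a1 -0.15 (0.208), Cyp2e1 0.27 (0.0967), Cyp2b10 0.21 (0.0808) and Cyp4v3 0.13 (0.0502), none of them called. Without C3HM mice 1 and 3, Cyp39a1 was at -0.20 with an adjusted p of 0.0539.

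Cyp3a13 and Cyp2r1 had a lower median in C3H over all conditions together as well. Over 24 mice a strain, Cyp3a13 had a range of 0 to 0.537 FPKM (median 0.217, n = 24) in C3H and of 0.488 to 2.83 FPKM (median 1.14, n = 24) in C57B, and Cyp2r1 had 0 to 0.749 FPKM (median 0.239, n = 24) against 0.410 to 2.24 FPKM (median 1.01, n = 24). The ranges of the 24 mice overlapped at their ends while the medians were well apart. Within saline hyperoxia alone, 6 members were called, 3 higher and 3 lower in C3H (23.1% beside 23.4% of all genes, 13.9% higher and 9.54% lower), and 3 were free of overlap beside 9.60% of all genes. Among them were Cyp3a13 and Cyp2r1, lower in C3H without overlap, and Cyp4f16, higher in C3H without overlap.

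Cyp2a5 was higher in C3H than C57B over all conditions, but with wide spread. It was 14.0, 11.6 and 2.20 FPKM in C3HM and 46.3, 14.0 and 221 in C3HF at baseline, against 4.77, 2.84 and 1.92 in C57BM and 5.64, 2.42 and 31.2 in C57BF, so the groups overlapped. Over 24 mice a strain it was 2.20 to 221 FPKM (median 12.3, n = 24) in C3H and 1.41 to 32.3 FPKM (median 5.21, n = 24) in C57B (log2 fold change 1.32, SE 0.34, adjusted p = 0.00179). Of its transcript, 55.6% of the 30-base words also occur in other genes and 46% of all its words occur in Cyp2a4, so how the authors' counting shared reads between the pair bears on its level.

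For sex at baseline, no member was called, beside 0.337% of all genes (64 genes), and 7 members had an unadjusted p under 0.05 in limma. The smallest adjusted p was that of Cyp2e1, which was 1.09 to 3.65 FPKM (median 2.53, n = 6) in males and 3.33 to 7.20 FPKM (median 4.36, n = 6) in females (log2 fold change -0.74, SE 0.19, adjusted p = 0.105). Cyp2b10, next in order, was 82.6 to 167 FPKM (median 111, n = 6) in males and 119 to 258 FPKM (median 178, n = 6) in females (log2 fold change -0.59, SE 0.16, adjusted p = 0.112). The ranges of the sexes overlapped for both genes. 6 members were called between sexes when C3HM mouse 2 was left out, and between 0 and 6 over the 12 fits that left out 1 mouse. Of the genes called, 39.1% were higher in males as deposited, and 56.3% and 54.8% after quantile normalization and median ratio scaling. For the interaction of strain and sex, no member was called either, beside 0.0105% of all genes, with 2 members at an unadjusted p under 0.05 in limma. With all 48 mice fitted 1 member was called, and 3 were when C3HM mouse 2 was left out. For these alternative fits of sex and of the interaction, the share of all genes called is not given here. Their counts are therefore not read as a result about the members.

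Hyperoxia lowered several members of different roles and raised 3. Cyp26b1, Cyp2e1, Cyp27a1, Cyp4v3, Cyp2j9 and Cyp2s1 were the genes that fell most, and Cyp7b1, Cyp4b1 and Cyp20a1 rose. The comparison took 12 saline mice in hyperoxia against 12 in room air. In all, 12 members were called, 3 higher and 9 lower, which is 46.2% of the members beside 54.3% of all genes (28.0% higher and 26.3% lower), so the share of members that changed did not exceed that of the genome. The median log2 difference was -0.14 for the members and -0.01 for all genes. No member was free of overlap between the 12 and 12 mice, beside 6.73% of all genes.

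Members were put into role groups mostly by subfamily, and the known substrate of a single enzyme can differ from its group. In the group for foreign chemicals and mixed substrates, 5 of 9 fell and 1 rose. Cyp2e1 was 1.09 to 7.20 FPKM (median 3.49, n = 12) in room air and 0 to 5.11 FPKM (median 0.228, n = 12) in hyperoxia, where it was listed at 0 in 3 mice (log2 fold change -1.46, SE 0.23, adjusted p = 1.9e-05). The C57B mice in hyperoxia were nearly all near 0, while C3HF mouse 33, at 5.11 FPKM, stood above most of the room air mice. Cyp2s1 was 28.5 to 95.0 FPKM (median 56.6, n = 12) in room air and 22.3 to 76.6 FPKM (median 39.8, n = 12) in hyperoxia (log2 fold change -0.47, SE 0.15, adjusted p = 0.0115). Its groups overlapped over most of their range, and without mice 6, 19, 27 and 33 its difference was -0.33 and its adjusted p 0.0682. Cyp2s1 was called lower within C57B (-0.91) and was not called within C3H. Its difference between the strains was not called either. The low members Cyp3a13 (-0.36), Cyp2ab1 (-0.37) and Cyp2c44 (-0.29) also fell, and they are named outside the rule for named genes, after their values were seen. Cyp2ab1 and Cyp2c44 met the rule for members through room air mice. On hyperoxia mice alone they would not have met it, so their place among the genes that fell was partly set by that rule. After quantile normalization Cyp3a13 had a difference of -0.21 (adjusted p = 0.0717) and Cyp2ab1 of -0.26 (adjusted p = 0.138), and without C3HM mice 1 and 3 that of Cyp2ab1 was -0.36 (adjusted p = 0.0635). Cyp4b1 rose, from 161 to 331 FPKM (median 282, n = 12) to 231 to 424 FPKM (median 372, n = 12) (log2 fold change 0.38, SE 0.10, adjusted p = 0.00384), and after quantile normalization its difference was 0.14 and its adjusted p 0.326.

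Among the 10 members put by subfamily into the group for fatty acids and eicosanoids, 2 fell and none rose. Cyp4v3, the fatty acid omega-hydroxylase whose human counterpart is the gene of a crystalline retinal dystrophy, was 9.09 to 16.8 FPKM (median 13.6, n = 12) in room air and 3.89 to 13.2 FPKM (median 6.01, n = 12) in hyperoxia. Its means were 13.9 ± 2.21 FPKM (SD, n = 12) and 7.16 ± 2.71 FPKM (SD, n = 12) (log2 fold change -0.93, SE 0.09, adjusted p = 1.02e-07). Cyp2j9, an arachidonic acid hydroxylase, was 1.72 to 3.89 FPKM (median 2.99, n = 12) in room air and 0.245 to 2.24 FPKM (median 1.06, n = 12) in hyperoxia (log2 fold change -0.89, SE 0.10, adjusted p = 3.31e-07). The overlap in both came from C3H mice. The 6 Cyp4f members, which oxidise leukotrienes and other fatty acids, were not called.

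Among the 5 members that act on sterols, bile acids and vitamin D, 1 fell and 1 rose. Cyp27a1, the mitochondrial sterol hydroxylase that starts the acidic route to bile acids, was 4.28 to 10.5 FPKM (median 8.60, n = 12) in room air and 1.35 to 4.99 FPKM (median 2.18, n = 12) in hyperoxia. Its means were 8.15 ± 1.78 FPKM (SD, n = 12) and 2.67 ± 1.21 FPKM (SD, n = 12) (log2 fold change -1.35, SE 0.13, adjusted p = 7.77e-08). Cyp7b1, the oxysterol hydroxylase that acts on the products of Cyp27a1, moved the other way, from 1.06 to 3.51 FPKM (median 1.94, n = 12) to 2.81 to 15.9 FPKM (median 7.09, n = 12) (log2 fold change 1.41, SE 0.19, adjusted p = 5.17e-06). The C57B hyperoxia mice at 2.81 and 3.21 FPKM lay below the highest room air mouse, and the other 10 were above all room air mice.

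Cyp26b1 fell most, from 0.964 to 103 FPKM (median 8.29, n = 12) to 0.474 to 4.56 FPKM (median 1.01, n = 12) (log2 fold change -2.47, SE 0.30, adjusted p = 1.05e-06). Most hyperoxia mice were at about 1 FPKM, and of the room air mice only C3HM mice 1 and 3 came down to that level. Cyp20a1 rose, from 9.65 to 21.3 FPKM (median 17.2, n = 12) to 15.9 to 25.6 FPKM (median 21.1, n = 12) (log2 fold change 0.32, SE 0.10, adjusted p = 0.00719), with overlap. Without C3HM mice 1 and 3 its difference was 0.21 and its adjusted p 0.0555.

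Markers of several lung cell types moved with these values. Summed club cell markers were 69659.8 to 230702 FPKM in room air and 6939 to 42768 in hyperoxia, with 3 of 5 lower, and summed alveolar type 2 markers were 25644 to 49299 and 5728 to 21772, with 4 of 5 lower and 1 higher. Ciliated cell markers (3 of 4), B cell markers (4 of 4) and T cell markers (3 of 3) were lower and neutrophil markers (4 of 4) were higher, at sums of 131 to 763 FPKM in room air and 158 to 6206 in hyperoxia. Cardiomyocyte markers were lower too (4 of 4, with sums of 15.4 to 747 FPKM in room air and 8.39 to 65.6 in hyperoxia), as were 3 of 5 alveolar type 1 markers (2627 to 5781 and 1253 to 3872). Adipocyte markers reached 26.9 FPKM in C3HF mouse 33 and 18.3 in C57BM mouse 21, the 2 saline hyperoxia mice with the highest Cyp2e1 (5.11 and 1.50 FPKM). Ucp1, listed among the adipocyte markers, was at 0 in all 12 saline hyperoxia mice. It was also at 0 in all 6 saline C57B and all 3 saline C3HM mice in room air. The part of these cell types in the results was not tested.

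**Figure D3:**
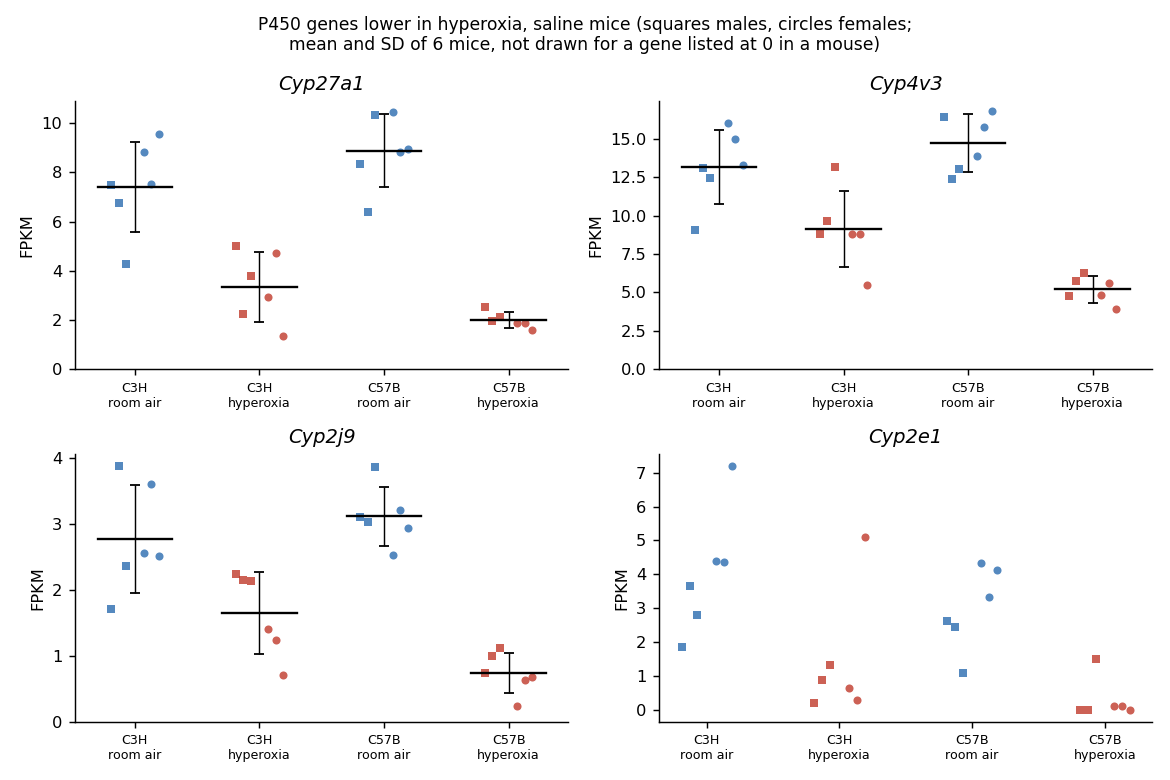
FPKM of Cyp27a1, Cyp4v3, Cyp2j9 and Cyp2e1 in each saline mouse (squares males, circles females, blue room air, red hyperoxia), with lines and bars for the mean and SD of 6 mice except for Cyp2e1. All 4 were lower in hyperoxia, and the fall was larger in C57B for Cyp4v3 and Cyp2j9.

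The fall in hyperoxia differed between the strains for 4 members, Cyp26b1, Cyp4v3, Cyp2j9 and Cyp3a13, and in each it was larger in C57B. The test was the hyperoxia difference in C3H less that in C57B. The 4 members were 15.4% of the members beside 9.66% of all genes, and the positive direction was shared with most genes called, 7.27% of all genes against 2.39% with the negative sign. The median of this difference was 0.40 for the members and 0.13 for all genes, and 75.3% of the genes called were positive as deposited but 48.8% and 46.6% after quantile normalization and median ratio scaling. The 4 members stayed positive under these scalings, with 2 called after the first and 4 after the second. Of all genes, 821 and 908 were then called positive and 863 and 1041 negative, against 1381 and 454 as deposited.

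Cyp4v3 in C57B fell from 16.5, 12.4 and 13.0 FPKM in males and 13.9, 15.8 and 16.8 in females to 4.77, 5.76 and 6.26 and 4.84, 5.59 and 3.89. In C3H it fell from 9.09, 13.1 and 12.4 in males and 16.0, 15.0 and 13.3 in females to 8.83, 9.68 and 13.2 and 8.83, 8.78 and 5.46. The C57B groups were wide apart and the C3H groups overlapped, with log2 fold changes of -1.35 and -0.50 and a difference of 0.85 (SE 0.19, adjusted p = 0.00898). This call held in all 33 alternative fits. The gene overlaps Gm45753 on the same strand, with which it shares 7.52% of its 30-base words.

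Cyp26b1 fell by 3.77 on the log2 scale in C57B, to 1.81, 0.901 and 1.04 FPKM in males and 4.56, 1.36 and 1.09 in females, without overlap. In C3H, where it was low in room air, it fell by 1.16, to 0.474, 0.568 and 0.996 FPKM in males and 1.02, 0.763 and 0.889 in females, and that smaller call was lost in 10 of the 24 fits that left out 1 mouse, that without C3HM mouse 2 among them, and without mice 6, 19, 27 and 33 (-1.09, adjusted p = 0.125). The difference was 2.60 (SE 0.60, adjusted p = 0.0109). Without C3HM mice 1 and 3 it was 1.91, with an adjusted p of 0.0674. In hyperoxia the strains no longer stood apart in Cyp26b1 by the test (log2 difference -0.54, adjusted p = 0.395).

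Cyp2j9 fell by 1.26 on the log2 scale in C57B and by 0.52 in C3H, a difference of 0.74 (SE 0.20, adjusted p = 0.0243), which without C3HM mice 1 and 3 was 0.50 with an adjusted p of 0.108. Cyp3a13 fell by 0.68 in C57B and had a log2 difference of -0.04 in C3H (adjusted p = 0.86), where it was low in both airs. Its difference between strains of 0.64 (adjusted p = 0.0338) was lost in 14 of 33 alternative fits.

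Within strains, 13 members were called in C57B, 2 higher and 11 lower (50% beside 50% of all genes, 22.3% higher and 27.7% lower), and 8 in C3H, 3 higher and 5 lower (30.8% beside 32.9%, 21.7% higher and 11.2% lower). In C57B the mice in the 2 airs did not overlap for Cyp26b1, Cyp27a1, Cyp4v3, Cyp2j9 and Cyp2c44, 5 members beside 28.7% of all genes, and in C3H for Cyp7b1, 1 member beside 12.6%. Cyp2c44 reached 0.5 FPKM only in room air mice, so it was a member through them alone. In C57B Cyp2s1 (-0.91) and Cyp4f15 (-0.77), a fatty acid epoxygenase, fell too, and in C3H Cyp4f17 (0.60) rose. The Cyp4f15 call was lost in 11 of 33 alternative fits, with adjusted p up to 0.115, that without mice 6, 19, 27 and 33 among them (-0.58, adjusted p = 0.0736), and without C3HM mice 1 and 3 Cyp4f17 was at 0.44 with an adjusted p of 0.167. Cyp7b1 rose in both strains, by 1.47 in C3H and 1.34 in C57B, and Cyp27a1 fell in both, by 0.99 and 1.71 on the log2 scale. Of the genes called in C3H, 65.9% were higher as deposited and 50.6% and 47.8% under the 2 other scalings. In C57B 44.6% were higher as deposited and 51.7% and 47.3% under them. There 7 and 9 members were called lower in place of 11, beside 4480 and 5090 of all genes in place of 5268. Summed club cell markers in hyperoxia were 27323 to 42768 FPKM in C3H and 6939 to 17438 in C57B, against 69659.8 to 230702 and 97712 to 166768 in room air, and 3 of 5 club cell markers, 3 of 3 T cell markers and 3 of 4 B cell markers had a positive difference by strain. Their part in these results was not tested.

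**Figure D4:**
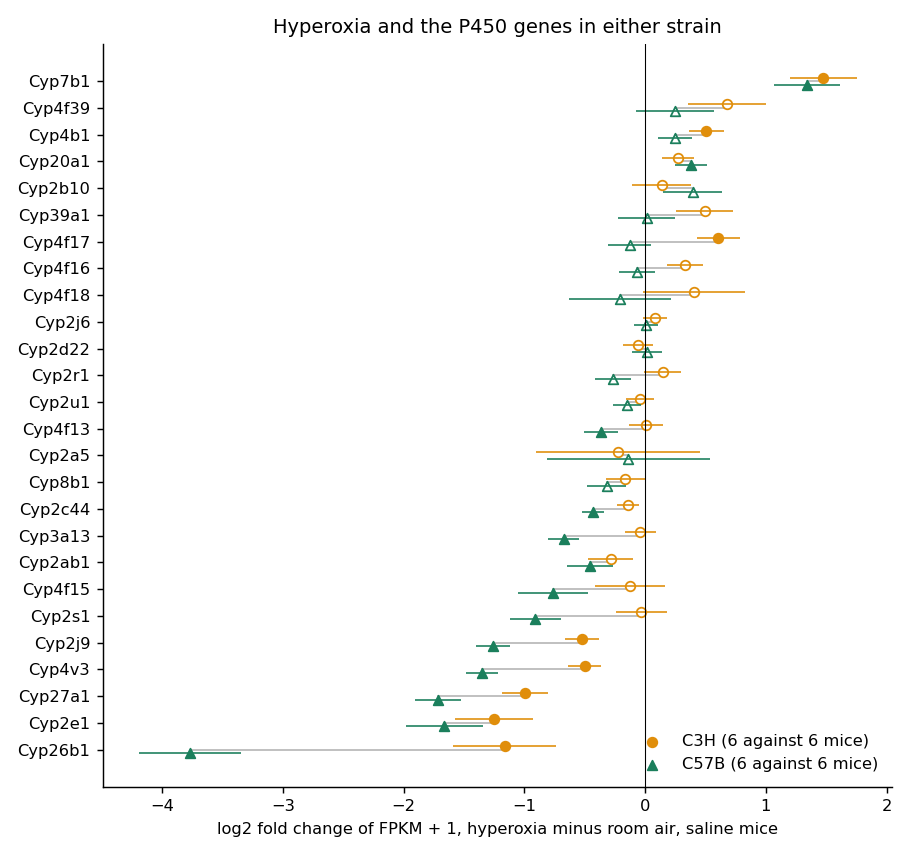
The log2 fold change of each member between hyperoxia and room air in saline C3H and saline C57B mice, with SE and with filled symbols for adjusted p under 0.05. Cyp26b1, Cyp4v3, Cyp2j9 and Cyp3a13 fell further in C57B than in C3H.

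No member differed in its response to hyperoxia by sex, beside 0.0316% of all genes (6 genes), with 6 members at an unadjusted p under 0.05 in limma. Cyp2s1 had the largest such difference among them, 1.20 on the log2 scale (adjusted p = 0.139). In C3H it was 40.0, 56.4 and 28.5 FPKM in males and 56.8, 51.5 and 86.7 in females in room air, and 65.8, 76.6 and 65.3 and 39.0, 33.6 and 32.9 in hyperoxia. The C3H males were thus above the C3H females in hyperoxia and mostly below them in room air. Fitted with all 48 mice, or without C57BM mouse 19, 1 member was called, and without C3HM mouse 2, 3 were. The share of all genes called in these fits is not given here.

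ATG left the members without a call in room air and changed Cyp7b1 and Cyp2d22 in hyperoxia. In room air, 12 ATG mice were compared with 12 saline mice, and no member was called, beside 0.0211% of all genes (4 genes), with 2 members at an unadjusted p under 0.05 in limma and none called in any alternative fit. In hyperoxia, 1 member was called higher and 1 lower, 7.69% of them beside 4.57% of all genes (3.36% higher and 1.21% lower), and no member was free of overlap between the 12 and 12 mice, beside 0% of all genes. Of the genes called there, 73.5% were higher with ATG as deposited and 44.1% and 38.5% under the 2 other scalings, while the 2 members kept their direction and call.

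Cyp7b1 in C3H was 28.8, 28.4 and 33.8 FPKM in males and 33.5, 17.8 and 22.0 in females given ATG in hyperoxia, against 4.87, 6.83 and 5.81 and 8.03, 9.40 and 14.9 with saline in hyperoxia. In C57B it was 3.08, 2.83 and 5.19 in males and 5.17, 4.23 and 10.4 in females with ATG, against 7.35, 2.81 and 4.05 and 12.4, 3.21 and 15.9 with saline. All 6 C3H mice given ATG were above all saline C3H mice in hyperoxia, while the C57B groups overlapped. Over both strains the means were 16.3 ± 12.5 FPKM (SD, n = 12) with ATG and 7.97 ± 4.40 FPKM (SD, n = 12) with saline (log2 fold change 0.65, SE 0.17, adjusted p = 0.0203).

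The difference between the strains was tested after the values had been seen. ATG in hyperoxia changed Cyp7b1 by 1.65 on the log2 scale in C3H (means 27.4 ± 6.36 FPKM (SD, n = 6) and 8.30 ± 3.60 FPKM (SD, n = 6), adjusted p = 4.02e-05), and the log2 difference in C57B was -0.35 (adjusted p = 0.474). The ATG effect in C3H less that in C57B was 2.01 (SE 0.33, adjusted p = 0.00085), the only member called, beside 1.13% of all genes (0.842% positive). Within C3H, 2 members were called, Cyp7b1 and Cyp2d22 (7.69% beside 2.57% of all genes, 1.56% higher and 1.02% lower), and Cyp7b1 alone was free of overlap, beside 1.46% of all genes. Within C57B none was called, beside 2.13% of all genes, with 2 at an unadjusted p under 0.05 in limma. Fitted with the 24 hyperoxia mice alone, the same difference had an adjusted p of 0.0529. In room air the Cyp7b1 ranges were 1.72 to 3.47 FPKM (median 2.66, n = 6) with ATG and 1.06 to 3.51 FPKM (median 2.26, n = 6) with saline in C3H. In C3H mice in hyperoxia all 4 alveolar macrophage markers were lower with ATG, at sums of 57.2 to 383 FPKM against 197 to 516, and none of them was called in C57B (633 to 1571 against 679 to 1684). By the test of the difference between strains, 1 of these 4 markers was called, with a more negative ATG effect in C3H. The part of these markers in the Cyp7b1 result was not tested.

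Cyp2d22 in hyperoxia was 3.45, 6.22 and 3.54 FPKM in C3HM and 3.38, 6.85 and 4.32 in C3HF with ATG, against 9.72, 7.61 and 6.21 and 7.31, 7.56 and 5.42 with saline. In C57B it was 6.23 to 9.16 FPKM (median 8.55, n = 6) with ATG and 6.57 to 11.7 FPKM (median 9.77, n = 6) with saline. The groups overlapped in both strains, with the lowest values in C3H mice given ATG. Over both strains the means were 6.40 ± 2.26 FPKM (SD, n = 12) and 8.49 ± 2.01 FPKM (SD, n = 12) (log2 fold change -0.40, SE 0.09, adjusted p = 0.0115), and within C3H the log2 fold change was -0.58 (adjusted p = 0.00829). Fitted with the 24 hyperoxia mice alone, the adjusted p over both strains was 0.0543, and that of Cyp7b1 0.0888.

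The ATG effect in hyperoxia less that in room air was called for Cyp2d22 alone (log2 fold change -0.49, SE 0.13, adjusted p = 0.0376), 1 member beside 2.18% of all genes (0.974% negative). This call was lost in 20 of the 48 fits that left out 1 mouse, without C3HM mice 1 and 3 (-0.51, adjusted p = 0.0564) and without mice 6, 19, 27 and 33 (-0.48, adjusted p = 0.0741). Of the genes called, 55.4% were positive as deposited and 34.0% and 32.1% under the 2 other scalings.

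**Figure D5:**
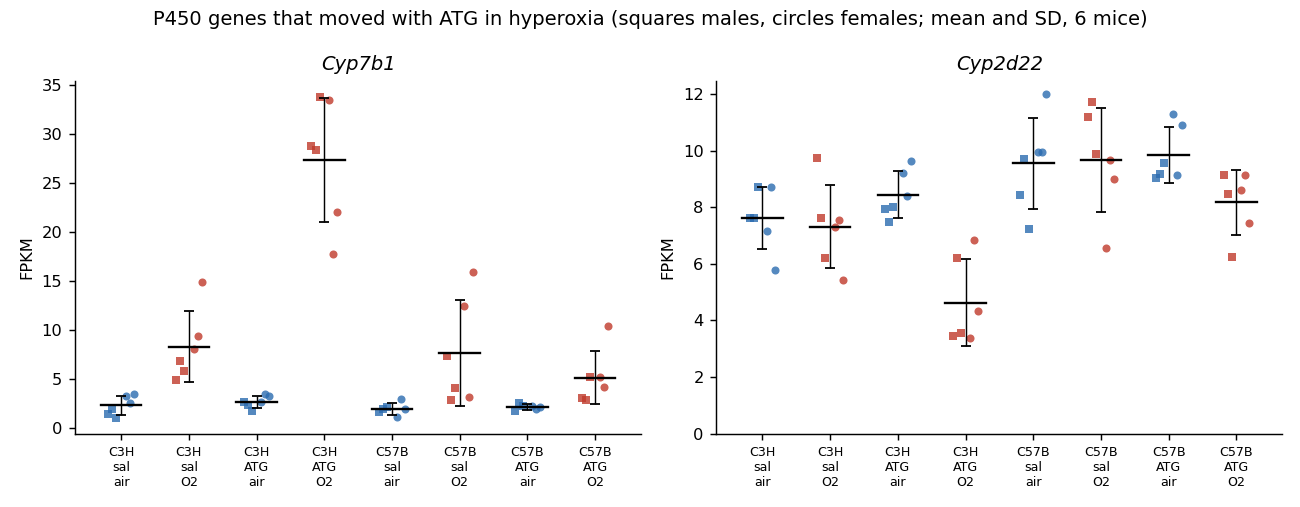
FPKM by mouse of Cyp7b1 and Cyp2d22 in each strain and combination of injection and air (squares males, circles females, blue room air, red hyperoxia, lines and bars the mean and SD of 6 mice). The 6 C3H mice given ATG in hyperoxia sat between 17.8 and 33.8 FPKM of Cyp7b1, above every other mouse of that strain.

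Genes that serve these enzymes changed in either direction in hyperoxia, where 54.3% of all genes were called, 28.0% higher and 26.3% lower. Por, which passes electrons to all microsomal P450 enzymes, was 113 ± 14.6 FPKM (SD, n = 12) in hyperoxia and 114 ± 49.2 in room air, and was not called (log2 difference 0.18, adjusted p = 0.397). Of the 9 electron transfer partners, 3 rose in hyperoxia, Cyb5r1 (0.93), a cytochrome b5 reductase, and the ferredoxin genes Fdx1l (0.68) and Fdx1 (0.26), and Fdxr (-0.55), the ferredoxin reductase, fell. Of 12 genes of heme synthesis and breakdown, 3 rose and 3 fell. Hmox1, the heme oxygenase, rose most (2.14), followed by Cpox (1.04), and Uros fell most (-0.75). Of 14 nuclear receptors that control P450 genes, 4 rose and 4 fell, with Rarg, a retinoic acid receptor, at -0.84 and Pparg at 0.74.

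Of 9 other oxygenases and epoxide hydrolases, 4 fell and 1 rose in hyperoxia. Fmo1, a flavin monooxygenase, fell without overlap, from 243 ± 78.9 to 62.4 ± 49.2 FPKM (SD, n = 12 each, log2 fold change -2.36), and its fall was larger in C57B (difference 1.66, adjusted p = 6.68e-05). Cyp2f2, the club cell P450 left out by the rule, fell by 1.57 on the log2 scale, also further in C57B (difference 2.06, adjusted p = 0.00902), and Cyp51, the P450 of cholesterol synthesis, rose by 0.68. At baseline, Alad of heme synthesis was higher in C3H than C57B without overlap (124 ± 15.3 and 39.3 ± 3.22 FPKM, SD, n = 6 each, log2 fold change 1.63), as was Fmo1 (0.71), Cyp51 was lower (-0.49), and Por and Cyp2f2 were not called.

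Sequence shared with other genes limits some of these levels. Besides Cyp2a5, the share of 30-base transcript words that also occur elsewhere was 27.3% for Cyp4f16 (mostly Cyp4f37), 20.4% for Cyp2b10 (mostly Cyp2b13), 12.7% for Cyp4f17 and 12.0% for Cyp4b1 (pseudogene copies), so these levels are less certain. It was 0 for Cyp26b1, Cyp7b1, Cyp27a1, Cyp2r1 and Cyp39a1, and 0.376% for Cyp3a13. Cyp4f18 overlaps Zfp961 and Cyp2s1 overlaps Gm26707 on the opposite strand.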

How the data were processed

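Lung RNA of 48 mice was sequenced. The authors deposited 1 table of FPKM per gene and mouse, made by aligning the reads to the mouse genome and estimating FPKM with Cufflinks. The submitters' processing notes name GSNAP, SAMtools, Cufflinks and mm10. No read counts were analysed here, so absolute depth is unknown, and the relative depth read from the low values was 0.790 to 1.28, an approximate figure. An exact 0 can be a failed estimate, and a value of 0 was given to every gene on X, Y and the mitochondrial chromosome.

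Groups came from the sample labels. Values were taken as log2(FPKM + 1), with a pseudocount of 1, for the 18998 of 47561 genes with at least 0.5 FPKM in at least 3 mice, and 1 gene with a failed estimate was left out. No 2 mice had identical values. Differences were tested with limma 3.58.1 in R 4.3.3 (1 mean per group, eBayes with trend), with Benjamini-Hochberg adjustment across all tested genes, and a gene was called at an adjusted p under 0.05. The fit held the 12 saline room air mice for strain and sex, the 24 saline mice for hyperoxia, and all 48 for ATG and for strain over all conditions. The p-values set each difference against the spread between mice within groups, which eBayes moderates across genes. The same steps were tested on simulated data. Within-strain comparisons, strain in hyperoxia and the ATG difference between strains were chosen after seeing the data.

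The genes and lists were chosen with earlier results of these data known. Genes named are the 8 most abundant members, the most abundant of each role, per comparison up to 6 called members that rose or fell most, up to 3 called genes per pathway list, and Por, Cyp51 and Cyp2f2. The fits were repeated after quantile normalization, after median ratio scaling, with other filters, with 0.1 as pseudocount, with no trend, with array weights, with other sets of mice and without each mouse in turn. Coding sequences came from GENCODE M21, read with Biopython 1.88, and promoters from RefSeq (GRCm38.p6), with entries for 20 of 26 members.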

Additional observations from a re-analysis of the deposited data

Results flagged for a closer look

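In the 8 sets of 6 mice of 1 strain, injection and air, a single mouse stood apart from the other 5 in 15 of 192 pairs of member and set, 7.81%, in 14 members. The gap of a mouse to the nearest other mouse and the whole range were taken on the log2(FPKM + 1) scale. A mouse was counted where its gap took up more of that range than Dixon's test allows at the 95% level. Chance gives this in about 1 of 20 sets. The values below are printed in FPKM, on which the same rule can pick other mice. Pairs of member and set were left out where no mouse reached the FPKM level asked of members.

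In C57BM ATG room air mouse 17, 3 members were low, Cyp4b1 at 236 FPKM (others 294 to 331), Cyp27a1 at 5.97 (7.92 to 9.09) and Cyp8b1 at 0.0847 (0.681 to 1.12). In C3HF saline hyperoxia mouse 33, which also had the highest neutrophil markers, Cyp4f18 was high at 23.7 FPKM (others 2.24 to 5.94), and Cyp39a1 at 6.30 (10.4 to 12.5) and Cyp4f39 at 0.819 (3.76 to 6.68) were low. In C3HF ATG room air mouse 30, Cyp2j9 was 1.59 FPKM (2.53 to 3.17) and Cyp4f17 0.984 (1.32 to 1.50).

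Among saline room air mice, Cyp2a5 was high at 31.2 FPKM in C57BF mouse 39 (others 1.92 to 5.64), Cyp4f16 at 12.9 in C57BM mouse 13 (9.29 to 10.0), Cyp4f18 at 10.7 in C3HM mouse 1 (1.85 to 3.34) and Cyp2ab1 at 2.36 in C3HF mouse 26 (0.0813 to 0.357). Among saline hyperoxia mice, Cyp26b1 was high at 4.56 FPKM in C57BF mouse 43 (0.901 to 1.81), Cyp2e1 at 1.50 in C57BM mouse 21 (0 to 0.102) and Cyp2r1 at 2.21 in C57BM mouse 20 (0.626 to 1.03).

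Differences between groups in the same contrast passed the limma test of the difference itself for the hyperoxia response of Cyp26b1 (2.60 on the log2 scale, C3H less C57B), Cyp4v3 (0.85), Cyp2j9 (0.74) and Cyp3a13 (0.64), for the ATG effect in hyperoxia on Cyp7b1 (2.01, C3H less C57B) and for the ATG effect on Cyp2d22 (-0.49, hyperoxia less room air). Cyp26b1 started from a higher level in C57B room air mice, and Cyp3a13 was near 0 in C3H in both airs.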

How the results depend on the processing

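None of the log2 fold changes of called members that were recomputed changed direction under the alternatives run, while uncalled differences and genes outside the members were not recomputed. Of the counts of called members, that of strain (4) was 3 to 7 over the fits that left out 1 mouse (7 without C3HM saline room air mouse 2, 3 without mouse 3), sex (0) 0 to 6 and strain by sex (0) 0 to 3 (6 and 3 without the same mouse 2), hyperoxia (12) 12 to 14, hyperoxia by strain (4) 3 to 6, and hyperoxia by sex (0) 0 to 3 (3 without C3HM mouse 2, 1 without C57BM mouse 19). ATG by air (1) was 0 to 1, ATG in hyperoxia by strain (1) was 1 to 3 (3 without C3HF mouse 33), ATG in hyperoxia stayed at 2, and strain over all conditions (12) was 12 to 14. With all 48 mice fitted, 1 member was called for strain by sex, 7 for hyperoxia by strain and 1 for hyperoxia by sex. With the 24 mice of 1 air, 0 were called for ATG in hyperoxia and 0 for its difference by strain, and with the 24 saline mice 7 were called for strain over all conditions, with the calls of Cyp7b1 (adjusted p = 0.509), Cyp39a1 (0.208), Cyp2e1 (0.0967), Cyp2b10 (0.0808) and Cyp4v3 (0.0502) lost. Hyperoxia by strain gave 2 after quantile normalization and 2 without C3HM mice 1 and 3. ATG by air gave 0 without a filter, 3 with array weights, 0 without C3HM mice 1 and 3 and 0 without mice 6, 19, 27 and 33, and leaving out these 4 gave 1 for hyperoxia by sex. Fewer mice in the fit or genes in the adjustment go with some of these settings, and the cause of the changes was not tested. The share of all genes called is not given beside these counts, so they are not read as a result about the members. The median over all genes was -0.13 for strain by sex, 0.13 for hyperoxia by strain and 0.12 for hyperoxia by sex on the log2 scale. Of the genes called for hyperoxia by sex, 83.3% were positive as deposited and 25.0% and 50% after quantile normalization and median ratio scaling. No paired analysis was possible because each mouse has its own number and no number is shared between groups. With FPKM and no counts, the counting error of low genes such as Cyp2r1, Cyp3a13 and Cyp2c44 could not be estimated here.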
